A study of Mus musculus with 2 samples.

Results

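Pericytes of the mouse lung were taken from live tdTomato-positive lung cells by their transcripts: 129 of the 9900 barcodes that passed the filters, 64 of 4468 after bleomycin and 65 of 5432 after saline. A barcode was a member when the gate genes Cox4i2, Higd1b, Notch3, Kcnj8 and Abcc9 summed to at least 4 UMIs (unique molecular identifiers, which count captured transcripts) with at least 1 from Cox4i2 or Higd1b. Myh11 and Actg2 had to sum to fewer than 3 UMIs, and Ptprc, Pecam1 and Epcam had to be at 0. The members were thus chosen by the UMIs of these genes, whose values are given as description. At the threshold itself, 6 bleomycin and 6 saline members had exactly 4 gate UMIs, while 10 and 9 barcodes that passed the filters had 3.

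Both groups were mice of 8 to 10 weeks with the genotype Lepr-Cre;Rosa26-tdtomato, given bleomycin, an antibiotic that breaks DNA and scars the rodent lung, or saline. Cre was driven by the leptin receptor gene and switches tdTomato on for good, so the sort aims at cells with past or present Lepr activity, and a sorted pericyte need not express Lepr. Each group was 1 library of 10x 3' v2 droplets, and the sources used here give no number of mice, dose or day. With 1 library per group there was no replicate and no test: a gene is called higher or lower by a rule of size, and every interval is a 95% interval that covers counting error only.

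Pericytes are the mural cells of capillaries. They lie inside the basement membrane they share with the endothelium, are recruited by endothelial PDGF-B through the receptor Pdgfrb, need Notch3 signalling to mature, and contract or relax to set capillary tone, with nitric oxide acting through soluble guanylate cyclase and cyclic GMP. In fibrotic lung they are studied as a possible source of matrix. Kcnj8 and Abcc9 encode the pore and the regulatory subunit of the ATP-sensitive potassium channel of mural cells, and Gucy1a3 and Gucy1b3 encode the chains of soluble guanylate cyclase; each pair lies side by side in the genome.

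The promoters of these pairs are shown because each pair forms a complex of the pericyte programme and its genes are neighbours. On chromosome 6 the genes Kcnj8 and Abcc9 were separated by 16247 bases, and on chromosome 3 Gucy1b3 and Gucy1a3 (Gucy1b1 and Gucy1a1 in RefSeq) by 17715 bases, with 0 genes lying wholly between in either case. Each sequence runs from 250 bases before to 50 bases after a listed gene start on GRCm38.p6, all on the minus strand, at chr6:142571565-142571864 for Kcnj8, chr6:142702225-142702524 for Abcc9, chr3:82145601-82145900 for Gucy1a3 and chr3:82074662-82074961 for Gucy1b3. The windows of Abcc9 and Gucy1a3 lie wholly inside the RefSeq spans of these genes, whose upstream ends are at 142702766 and 82145946. The starts printed for these genes are thus not the outermost ones. Capitals mark TGGGAA, the core letters bound by Rbpj, the DNA-binding partner of Notch, searched on both strands.
Kcnj8: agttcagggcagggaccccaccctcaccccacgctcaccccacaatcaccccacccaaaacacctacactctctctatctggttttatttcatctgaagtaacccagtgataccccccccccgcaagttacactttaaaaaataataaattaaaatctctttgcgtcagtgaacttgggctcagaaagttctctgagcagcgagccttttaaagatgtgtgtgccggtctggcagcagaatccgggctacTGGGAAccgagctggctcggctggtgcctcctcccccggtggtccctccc
Abcc9: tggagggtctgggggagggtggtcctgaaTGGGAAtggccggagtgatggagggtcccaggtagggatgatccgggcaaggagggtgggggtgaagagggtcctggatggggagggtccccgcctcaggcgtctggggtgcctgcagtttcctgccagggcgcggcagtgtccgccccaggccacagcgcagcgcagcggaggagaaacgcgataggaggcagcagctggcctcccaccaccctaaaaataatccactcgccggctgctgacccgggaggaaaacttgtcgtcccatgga
Gucy1b3: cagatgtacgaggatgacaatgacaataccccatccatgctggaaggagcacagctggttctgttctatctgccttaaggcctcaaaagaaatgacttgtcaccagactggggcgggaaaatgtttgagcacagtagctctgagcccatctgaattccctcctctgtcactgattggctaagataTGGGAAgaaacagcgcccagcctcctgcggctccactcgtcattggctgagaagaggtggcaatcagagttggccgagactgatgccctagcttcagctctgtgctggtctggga
Gucy1a3: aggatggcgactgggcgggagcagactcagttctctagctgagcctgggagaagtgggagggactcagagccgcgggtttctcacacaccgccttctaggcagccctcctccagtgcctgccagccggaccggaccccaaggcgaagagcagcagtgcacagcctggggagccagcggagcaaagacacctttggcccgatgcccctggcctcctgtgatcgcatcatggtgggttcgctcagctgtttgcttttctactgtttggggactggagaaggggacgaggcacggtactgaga
The Gucy1a3 start printed here holds no TGGGAA, and 1 of its 2 listed starts does. Of the 31 gate genes and other pericyte genes listed for this report, 19 matched a promoter by symbol, and 9 of those 19 had a start with the motif. Counted by promoter, 9 of 23 held it (39.1%), beside 25.6% of all 32851 promoters of that length. These matches describe letters in a window and not sites of binding.

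Gate UMIs ran from 4 to 166 in bleomycin members (median 39.5) and from 4 to 256 in saline members (median 36). A line drawn at 12, after seeing the members, left 46 bleomycin and 51 saline members with 12 or more gate UMIs. All 46 and all 51 carried Ndufa4l2, a respiratory-chain subunit paralog that the gate did not use. Gucy1a3 was found in 44 of the 46 and 51 of the 51, and Pdgfrb in 44 and 49. The remaining 18 bleomycin and 14 saline members, with 4 to 11 gate UMIs, went against the label. Ndufa4l2 was found in 3 of those 18 and 4 of those 14, whereas the fibroblast receptor Pdgfra was found in 9 of the 18 and 7 of the 14. Dcn, the decorin gene of fibroblasts, stood at 1396 and 3938 UMIs per 1000000 (UPM) in those low members after bleomycin and saline. It stood at 48.4 and 480.4 UPM in the members with 12 or more, where 1 saline member held 107 of the 137 UMIs. The values below are for all members, with those of the members of 12 or more gate UMIs wherever they differ in call.

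**Figure D1:**
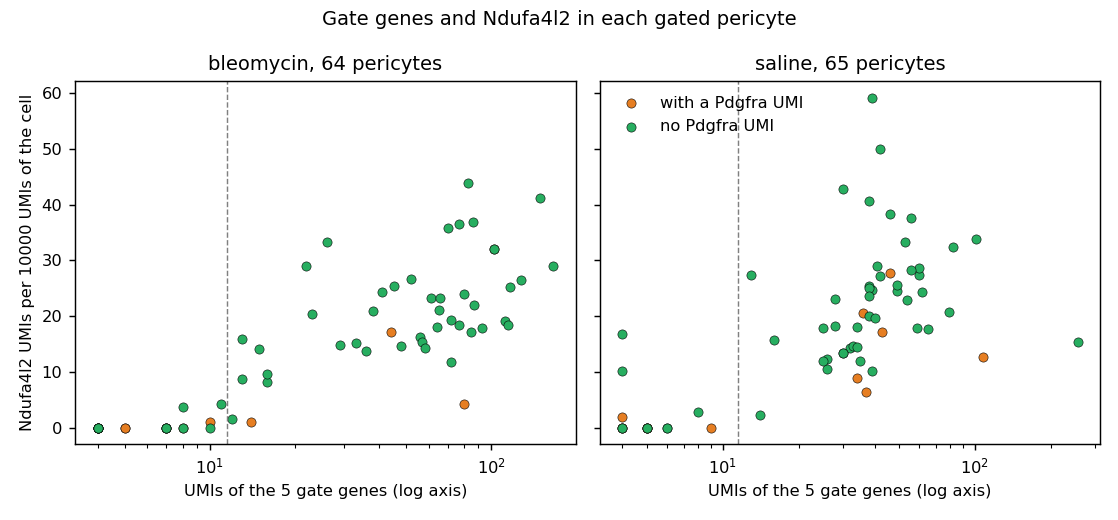
Each point is a gated pericyte, with the UMIs of the 5 gate genes on a log x axis and Ndufa4l2 UMIs per 10000 UMIs of the cell on the y axis, for bleomycin (left) and saline (right). Orange points have a Pdgfra UMI; right of the dashed line lie the 46 bleomycin and 51 saline members with 12 or more gate UMIs, all with Ndufa4l2.

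The members held 642569 UMIs after bleomycin (4037 to 36065 per member, median 7944) and 392078 after saline (2556 to 25427, median 4650). Their share of passing barcodes was 1.43% [1.10 to 1.83] after bleomycin and 1.20% [0.925 to 1.52] after saline, intervals that overlap. The 2 libraries shared 33 barcode sequences, of which 1 belonged to a saline member and 0 to a bleomycin member.

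The 5 markers were all found in both libraries. Cox4i2, a lung-enriched subunit isoform of cytochrome oxidase, stood at 2512 UPM [2391 to 2637] in bleomycin pericytes and 4045 UPM [3848 to 4249] in saline pericytes. Higd1b, a mitochondrial gene of mural cells, stood at 1743 and 1854 UPM. Fibroblasts were required to have 0 of both, and immune cells had a Cox4i2 UMI in 1.56% of bleomycin and 2.15% of saline cells, which gives the level of stray UMIs.

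Notch3 stood at 297 UPM after bleomycin and 298 after saline, with intervals that overlap. Kcnj8 stood at 123 UPM [97.3 to 153] and 119.9 UPM [88.1 to 159], and Abcc9 at 45.1 and 45.9 UPM. Pdgfrb, which the gate did not use, stood at 453 UPM [402 to 508] and 574 UPM [501 to 654], with a UMI in 55 of 64 bleomycin and 52 of 65 saline members. After thinning every cell to 2000 UMIs, Pdgfrb was found in 59.4% and 58.5% of pericytes, in 19.2% and 13.8% of smooth muscle cells, and in 1.87% and 1.17% of immune cells. The endothelial marker Cldn5 had 0 UMIs in pericytes of either library, and the immune marker Tyrobp stood at 6.23 and 15.3 UPM. The 12 listed endothelial genes summed to 207 and 245 UPM, against 44.2 and 76.0 UPM in smooth muscle, of which 154 and 176 UPM were Esam, an adhesion molecule that was called higher than in smooth muscle and fibroblasts in both libraries; 5 and 3 of the 12 were at 0. The 10 immune genes summed to 119.8 and 217 UPM, against 95.4 and 375 UPM in smooth muscle. The part of these transcripts in the contrasts was not tested.

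Smooth muscle cells (213 bleomycin and 160 saline) had Myh11 and Actg2 summing to 3 or more. They had 0 UMIs of Pdgfra, Ptprc, Pecam1 and Epcam. Pericytes had no condition on Pdgfra, which had a UMI in 13 of 64 bleomycin and 13 of 65 saline members. Set against smooth muscle cells of the same library, pericytes were higher for 220 of 2643 genes in both libraries (8.32%) and lower for 90 (3.41%). Of 23 other measured genes listed for pericytes, 16 were higher in both libraries and none lower. Against fibroblasts (2585 and 2979 Pdgfra-positive cells with matrix genes) 191 of 2667 genes were higher in both libraries (7.16%) and 78 lower (2.92%), and 18 of the same 23 were higher. A gene counts only with 30 UMIs and 50 UPM in the higher group, in at least 5 cells of which none holds over 25% of the UMIs, and a 2-fold ratio.

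Genes of cell contact and vessel tone were among the leaders. Gja4, the gap junction protein connexin 37, stood at 314 and 398 UPM in bleomycin and saline pericytes, against 13.1 and 18.1 UPM in smooth muscle and 0.634 and 2.96 UPM in fibroblasts. Agtr1a, the angiotensin II receptor, stood at 201 and 158 UPM in pericytes, against 6.56 and 3.62 UPM in smooth muscle. Pdzd2 had 993 and 1734 UPM in pericytes, against 22.6 and 78.4 UPM in smooth muscle. Each of these levels lay apart between classes by over 10-fold in both libraries.

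Ifitm1, an interferon-induced membrane protein, led the contrast with smooth muscle at 1198 and 1584 UPM in pericytes, against 36.4 and 45.8 UPM. It was lower in fibroblasts as well (134 and 500 UPM), while Ifitm3 stood at 3498 and 3629 UPM in pericytes. Wnt4, a secreted Wnt ligand, stood at 154 and 245 UPM in pericytes, against 3.61 and 15.7 UPM in smooth muscle. Gap43, Fam162b, Itm2a, Cadm1 and Ndufa4l2 completed the leading genes over smooth muscle outside the gate. Against fibroblasts the further leaders were Mcam, the adhesion molecule CD146, at 336 and 594 UPM against 1.16 and 0.896 UPM, and Vtn, vitronectin, at 154 and 367 UPM against 0.0552 and 0.493 UPM. Rgs4, a brake on G protein signalling, Emid1 and Gucy1b3 were the other further leaders outside the gate.

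Contractile genes divided the mural classes. Of 18 measured smooth muscle genes, 9 were lower in pericytes than in smooth muscle in both libraries and none was higher. Of all 2643 genes 90 were lower (3.41%). Myh11 and Actg2 were used to define both classes, so their levels here are description only. Acta2, smooth muscle actin, stood at 1236 and 1217 UPM in bleomycin and saline pericytes, against 6669 and 16123 UPM in smooth muscle cells. Cnn1, calponin, stood at 1.56 and 17.9 UPM in pericytes, against 357 and 1617 UPM. Actc1 had 0 UMIs in pericytes of either library, under limits of 4.67 and 7.65 UPM, against 353 and 1898 UPM in smooth muscle. Des, desmin, differed less, at 731 and 1107 UPM in pericytes. The bleomycin smooth muscle class also held cells with the scar fibroblast gene Cthrc1 (1094 UPM, against 1.21 UPM in the saline class) and Col1a1 (6300 UPM), so that its levels are those of a mixed class. Their part in the contrast was not tested.

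**Figure D2:**
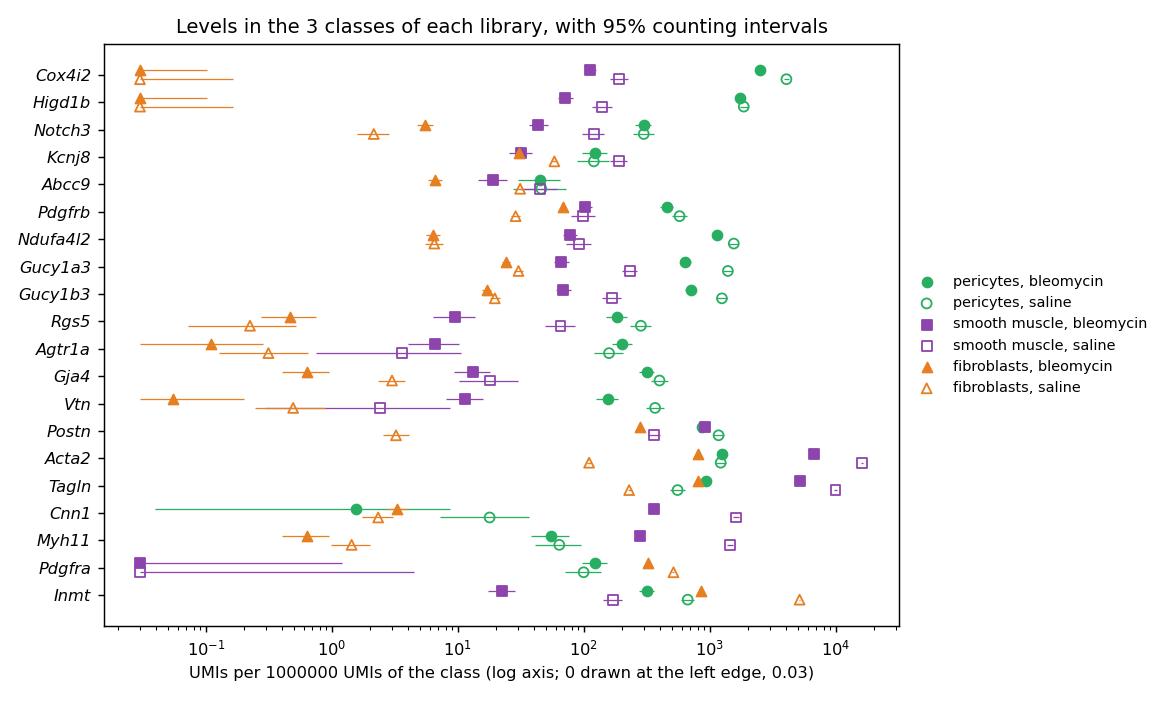
Summed UMIs per 1000000 UMIs of each class, on a log axis with 95% counting intervals, for pericytes (circles), smooth muscle (squares) and fibroblasts (triangles); filled symbols are bleomycin and open symbols saline. Pericytes lie to the right for Cox4i2 through Vtn except Kcnj8 and Abcc9, where smooth muscle or fibroblasts reach them in saline (Kcnj8 189 UPM in saline smooth muscle), and lie left of smooth muscle for Acta2, Tagln, Cnn1 and Myh11. Cox4i2, Higd1b, Notch3, Kcnj8, Abcc9, Myh11 and Pdgfra were used to define the classes, so their places are description only.

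Kcnj8 was found outside pericytes too and stood at 31.5 and 189 UPM in bleomycin and saline smooth muscle, and at 30.7 and 58.3 UPM in fibroblasts. Rgs5, a regulator of G protein signalling often used as a pericyte marker, was found in a part of the members only. Among members of 12 or more gate UMIs it was found in 23 of 46 after bleomycin and 13 of 51 after saline. Its highest member reached 35.9 and 34.3 UMIs per 10000, whereas the median member had 0.416 and 0. Kcnj8 was found in 15 of the 46 and 14 of the 51, and both genes together in 7 and 5. After thinning, the share of all members with Rgs5 was 17.2% [8.90 to 28.7] and 18.5% [9.92 to 30.0], against 0 of 321 bleomycin immune cells, which allows a share of up to 0.935%, and 0 of 512 saline immune cells, which allows up to 0.586%.

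The use of mitochondrial paralogs differed between classes. Ndufa4l2, a paralog of the oxidase-associated subunit Ndufa4 known to be induced in low oxygen, gave 78.0% [75.2 to 80.6] of the pair's UMIs in bleomycin pericytes and 92.2% [89.9 to 94.2] in saline pericytes. In smooth muscle it gave 11.97% and 16.6%, and in fibroblasts 1.16% and 1.68%. Among members of 12 or more gate UMIs the share was 94.0% [92.1 to 95.6] after bleomycin and 98.5% [97.2 to 99.3] after saline. With barcodes thinned before the gate it was 98.2% and 98.8%, a far smaller gap between the libraries. Ndufa4 itself was called higher after bleomycin, at 319 UPM against 130 UPM in saline pericytes, with a UMI in 21 of 64 and 18 of 65 members. It had 46 and 9 UMIs in the members of 12 or more, where it passed no call. The gate used Cox4i2 and Higd1b, so their shares (67.5% and 82.6% of Cox4i2 with Cox4i1, and 89.1% and 92.1% of Higd1b with Higd1a) are descriptions; in smooth muscle they were 8.55% and 13.2% for Cox4i2, and 27.8% and 47.2% for Higd1b. The oxygen-sensing factor Epas1, known as HIF-2 alpha, stood at 269 and 403 UPM in pericytes and was higher there than in either other class in both libraries.

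**Figure D3:**
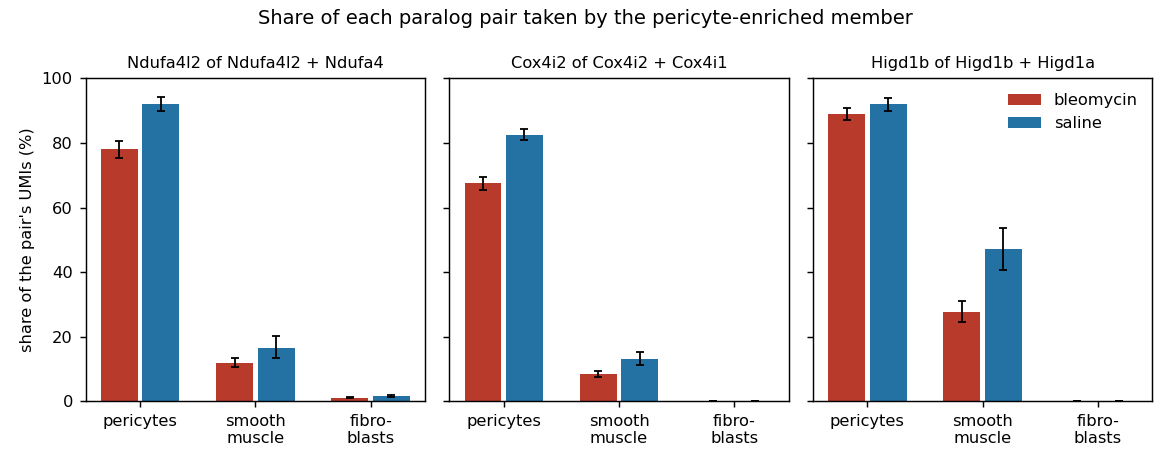
Share of a paralog pair's UMIs taken by Ndufa4l2, Cox4i2 or Higd1b in each class, bleomycin (red) left of saline (blue), with 95% counting intervals. In pericytes the shares run from 67.5% to 92.2%; in fibroblasts Ndufa4l2 takes 1.16% and 1.68%, and Cox4i2 and Higd1b are at 0 by the definition of that class.

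Between libraries, 104 of 2984 genes were higher in bleomycin than in saline pericytes (3.49%) and 133 lower (4.46%). In the members of 12 or more gate UMIs, 60 of 2206 were higher (2.72%) and 103 lower (4.67%), with 35 of the higher and 78 of the lower shared and 0 called the opposite way. The median of all measured genes was -0.07 on the log2 scale. Median-of-ratios scaling subtracts a median ratio of -0.11 and so would raise the ratios. With it, 134 genes were higher and 105 lower. In cells of the same libraries, 10.7% of tested genes were called higher and 11.8% lower in smooth muscle, and 4.94% and 9.09% in fibroblasts. Fewer cells of a kind and less RNA per cell cannot be told apart in such sums.

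Of the pericyte genes outside the gate none rose. The 5 gate genes passed no call in either direction, but the members of both libraries were chosen by their UMIs, so this is description only. Of 23 other pericyte genes 3 fell: Gucy1a3, Pde5a and Vtn (median log2 ratio -0.61, and -0.42 in the members of 12 or more). Of all 5974 measured genes 133 fell. Gucy1a3, a chain of soluble guanylate cyclase, stood at 638 UPM in bleomycin pericytes and 1387 UPM in saline pericytes, a log2 ratio of -1.11 [-1.31 to -0.93]. Its partner Gucy1b3 stood at 702 and 1245 UPM, a log2 ratio of -0.82 that missed the size rule. Pde5a, the phosphodiesterase that breaks down cyclic GMP, stood at 344 and 872 UPM, a log2 ratio of -1.33. It was called lower among members of 12 or more gate UMIs too (517 against 1175 UPM), whereas Gucy1a3 (-0.90) and Vtn (-0.96) then passed no call. In smooth muscle the log2 ratios of Gucy1a3 and Pde5a were -1.73 and -2.25, and in fibroblasts -0.28 and -0.18. Of 8 measured genes of cyclic nucleotide signalling these 2 fell and none rose.

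Notch targets were among the genes that fell. Of 9 measured Notch genes, Nrarp and Hes1 fell and none rose, with a median log2 ratio of -0.21. Of all 5974 measured genes 133 fell, and so short a list says little by its count. Nrarp, a feedback inhibitor that Notch induces, stood at 74.7 UPM in bleomycin pericytes [55.1 to 99.04] and 255 UPM in saline pericytes [208 to 310], with a UMI in 20 of 64 and 40 of 65 members. Hes1, a repressor that Notch induces, stood at 282 and 724 UPM. Both were called lower in the members of 12 or more gate UMIs too. After thinning, Nrarp was found in 10.9% and 43.1% of pericytes, 0.939% and 1.25% of smooth muscle cells, and 0 of 321 and 0 of 512 immune cells, which allow up to 0.935% and 0.586%. The Notch target Heyl stood at 191 and 306 UPM, a log2 ratio of -0.67 that passed no call.

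Signals of other pathways moved singly. Bambi, a decoy receptor of the TGF-beta family, fell to 90.3 UPM in bleomycin pericytes, against 229.5 UPM in saline pericytes, and was called in the members of 12 or more as well. Bmp4, a ligand of that family, and Acvrl1, a receptor, fell in all members only. Ctgf, a matricellular TGF-beta target, rose to 336 UPM, against 119.9 UPM in saline pericytes, with a UMI in 40 of 64 and 23 of 65 members; in the members of 12 or more its log2 ratio was 0.84 and passed no call. These were the 4 calls among 22 measured TGF-beta and BMP genes over all members. In the members of 12 or more, 1 gene of the list was lower and 1 higher, the higher one not among these 4. Ptch1, the Hedgehog receptor and target, fell to 49.8 UPM in bleomycin pericytes, against 119.9 UPM in saline pericytes. It was the 1 call among 10 measured Wnt and Hedgehog genes over all members, and 2 genes of that list were lower in the members of 12 or more. These counts stand beside 104 higher and 133 lower of all 5974 measured genes. Angpt2, an angiopoietin, fell to 35.8 UPM, against 86.7 UPM, but passed no call in the members of 12 or more (log2 -0.87). Of 9 vasoactive receptor genes and 13 adhesion genes none was called; Ednra, the endothelin receptor, stood at 167 and 250 UPM.

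Immediate early and stress genes held the most calls of any list. Of 23 measured, 14 fell and none rose, with a median log2 ratio of -1.21 beside -0.07 for all genes, and 14 also fell among members of 12 or more. Fos stood at 932 UPM in bleomycin pericytes and 3107 UPM in saline pericytes, with a UMI in 41 of 64 and 64 of 65 members. Jun stood at 515 and 1724 UPM, and the heat shock gene Hspa1a at 518 and 1803 UPM. The products of Fos and Jun form the transcription factor AP-1. The same list had median log2 ratios of -1.69 in smooth muscle and -1.41 in fibroblasts.

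Genes of antigen presentation and complement fell next. Of 15 measured, 10 fell and none rose, with a median of -1.65, and 7 fell among members of 12 or more. H2-K1, a class I heavy chain, stood at 210 UPM [176 to 249] in bleomycin pericytes and 1183 UPM [1078 to 1296] in saline pericytes. B2m, the light chain, stood at 2482 and 5963 UPM, with a UMI in every member of both libraries. Psmb9, a subunit of the immunoproteasome, stood at 28.0 and 153 UPM, and the complement protease gene C1s1 at 125 and 400.4 UPM. The guanylate-binding protein gene Gbp4 and the interferon-induced GTPase gene Ifi47 were among the 10 lowest ratios at -2.51 and -2.33. Among the interferon genes listed, Irf1 and Gbp3 fell (Gbp3 at log2 -1.07, but 0.48 when barcodes were thinned before the gate), though neither was called in the members of 12 or more, while Isg15 (106 and 161 UPM) and Ifit3 (66.9 and 91.8 UPM) passed no call. The same antigen and complement list had medians of -0.85 in smooth muscle and -1.52 in fibroblasts. H2-K1 is made by most cell types. Its lowest level among fibroblasts, immune cells and endothelial cells was 163 UPM after bleomycin and 740 UPM after saline, which moved with it. Smooth muscle was not among these classes. After thinning, H2-K1 was found in 17.8% of bleomycin and 49.4% of saline smooth muscle cells, against 23.2% and 66.6% of fibroblasts. The part of stray transcripts was not tested.

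Chemokine genes were among those that fell. Cxcl1, a neutrophil attractant, fell to 32.7 UPM in bleomycin pericytes, against 270.4 UPM in saline pericytes, the lowest ratio outside epithelial transcripts (log2 -2.87 [-3.80 to -2.36]). Cxcl14, Icam1 (log2 -1.54, but 0.042 with thinning before the gate) and Nfkb1 fell as well, and Serpina3n, a serine protease inhibitor of the acute phase, rose to 471 UPM, against 135 UPM, among 18 measured inflammatory genes. Serpina3n (115 and 80.7 UPM), Icam1 (log2 -1.58) and Nfkb1 (-0.77) passed no call in the members of 12 or more gate UMIs. Cxcr4, the receptor of Cxcl12, fell to 14.01 UPM, against 84.2 UPM, with a UMI in 8 of 64 and 17 of 65 members.

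Interstitial matrix was the list with most genes higher, but none of these calls held in the members of 12 or more gate UMIs. Of 30 measured, 8 rose (Spp1, Timp1, Fn1, Tnc, Lox, Col12a1, Col5a1 and Mgp) and none fell, with a median of 0.72. Among members of 12 or more the list median was 0.45. The log2 ratios of Spp1, Fn1, Lox, Tnc, Mgp and Timp1 were then 3.75, 2.08, 2.18, 1.57, 1.504 and 1.23, past 2-fold but short of another condition of the rule, whereas Col5a1 and Col12a1 were short of 2-fold; Col12a1 then stood at 20.4 and 21.0 UPM, and Timp1 at 171 and 70.1 UPM. Fn1, fibronectin, stood at 886 UPM in bleomycin pericytes and 171 UPM in saline pericytes (418 and 94.7 UPM in the members of 12 or more). Bleomycin endothelial cells, which stand here for stray transcripts though they make fibronectin, had 761 UPM. Col1a1 stood at 2160 and 977 UPM in pericytes, with 25.6% of its bleomycin UMIs in 1 member, and at 4760 and 1417 UPM in fibroblasts. Cthrc1 had 50 UMIs after bleomycin, of which 1 member held 50%, and 1 UMI after saline. Postn, periostin, stood at 864 and 1171 UPM in bleomycin and saline pericytes (log2 -0.44), against 279 and 3.18 UPM in fibroblasts. None of the 15 basement membrane genes was called: Col4a1 stood at 977 and 706 UPM, with a UMI in all 64 bleomycin members and 56 of 65 saline members.

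**Figure D4:**
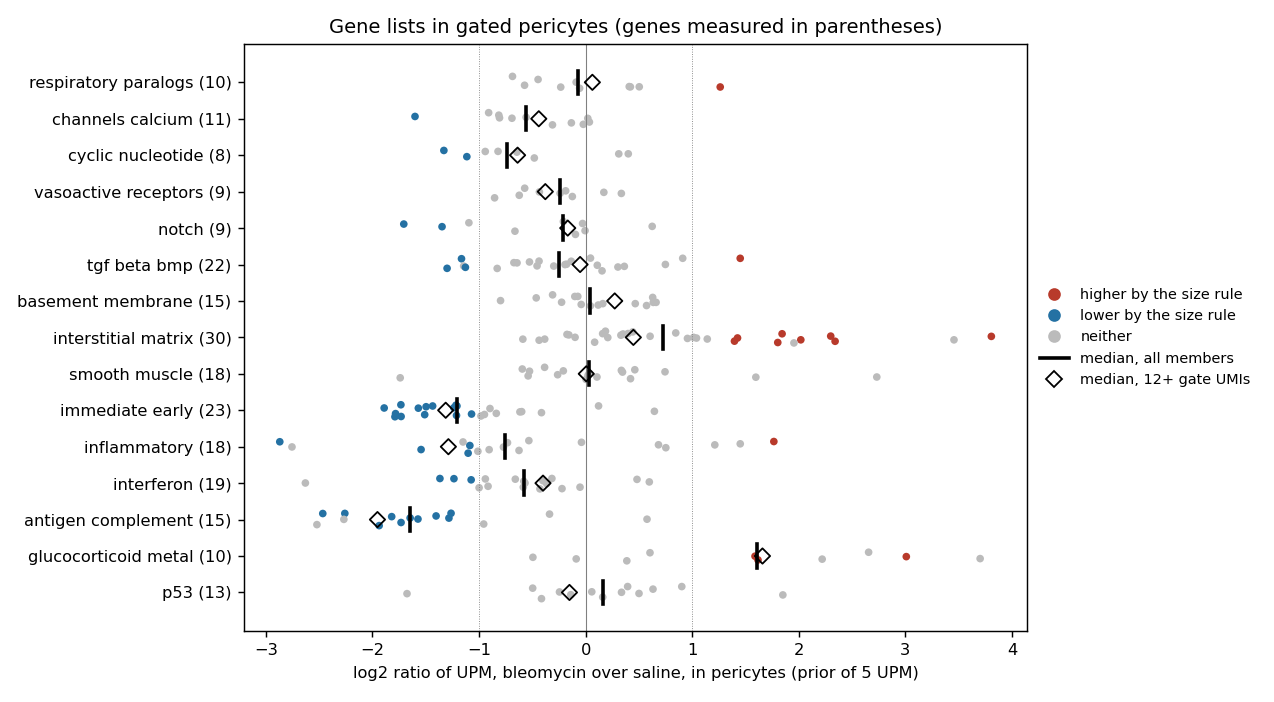
Log2 ratios of bleomycin over saline in pericytes for each measured gene of 15 lists, with 0 meaning no difference; red points passed the size rule as higher and blue as lower. Bars are medians over all members and diamonds over members of 12 or more gate UMIs; immediate early (-1.21) and antigen and complement genes (-1.65) lie to the left and interstitial matrix (0.72) to the right.

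Spp1, the secreted phosphoprotein osteopontin, had the highest ratio of all. It stood at 5629 UPM [5447 to 5815] in bleomycin pericytes and 398 UPM [338 to 465] in saline pericytes, with a UMI in 60 of 64 and 6 of 65 members. A UMI alone says little after bleomycin, since 98.1% of immune cells had one too, and 34 of 181 endothelial cells were without. Counted from 10 UMIs per 10000, 30 of 64 bleomycin pericytes (46.9% [34.3 to 59.8]) and 4 of 65 saline pericytes (6.15% [1.70 to 15.01]) were Spp1-high. Among bleomycin cells the share was 25.3% in fibroblasts, 16.4% in smooth muscle and 4.42% in endothelial cells.

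The Spp1-high members carried the other pericyte genes as well. In members of 12 or more gate UMIs, 27 of 46 bleomycin and 4 of 51 saline cells were Spp1-high; 1 bleomycin member held 814 of the 2910 UMIs, which kept Spp1 from the call there (7412 and 547 UPM). The 27 high cells had 2242 UPM of Ndufa4l2, 1336 UPM of Gucy1a3, 817 UPM of Pdgfrb and 15.7 UPM of Cthrc1, and 1 of them had a Pdgfra UMI. The 19 other bleomycin cells had 1457, 694, 525 and 9.91 UPM of the same genes, and 3 had a Pdgfra UMI. Col1a1 stood at 623 UPM in the high cells and 1338 UPM in the others. The cells were split by Spp1, so these values are a description of both sides.

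**Figure D5:**
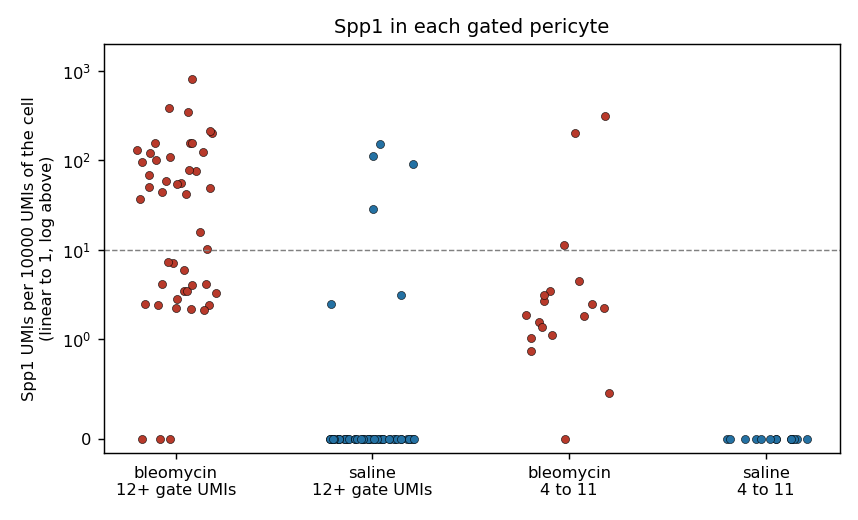
Each point is a gated pericyte, with Spp1 UMIs per 10000 UMIs of the cell on a y axis that is linear to 1 and logarithmic above; groups are bleomycin and saline members with 12 or more gate UMIs, then those with 4 to 11. Above the dashed line at 10 lie 27 of 46 bleomycin and 4 of 51 saline members of the first kind.

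Several glucocorticoid-responsive genes rose. Of 10 measured, Fkbp5, Sgk1 and Angptl4 rose and none fell, with a median of 1.60, beside 0.79 in smooth muscle and 0.60 in fibroblasts. Fkbp5, a co-chaperone of the glucocorticoid receptor, had 49 UMIs in 27 bleomycin members and 2 UMIs in 2 saline members, a ratio of 14.9 [3.92 to 127]. Angptl4, a lipase inhibitor, stood at 279 UPM and 89.3 UPM, with a UMI in 53 of 64 and 17 of 65 members, and was called among members of 12 or more. The metallothioneins Mt1 (4619 and 729 UPM) and Mt2 (3774 and 286 UPM) missed the call because 1 member held 37.7% and 32.5% of the bleomycin UMIs. Of the 3, Fkbp5 and Sgk1 passed no call in the members of 12 or more (log2 3.93 and 1.34), and Sgk1 (log2 1.62 over all members) changed sign when barcodes were thinned before the gate (-0.68). Fkbp5 was at log2 2.40 in smooth muscle and 2.60 in fibroblasts.

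Further genes among the 10 highest ratios were Hspb7, a small heat shock protein gene (47 UMIs in 12 bleomycin members and 1 UMI in saline), Sphk1, which makes sphingosine 1-phosphate (40 and 2 UMIs), Ahnak2 (36 and 2), Upk1b (37 and 3), Pla1a, a phospholipase gene (45 and 3), and Cdo1, cysteine dioxygenase. Cdo1 stood at 405 UPM in bleomycin pericytes and 86.7 UPM in saline pericytes. Cdo1 and Pla1a were the 2 of these called among members of 12 or more. Gsn, gelsolin, an actin-severing protein, fell to 1259 UPM, against 5874 UPM in saline pericytes, and Ppp1r15a, a stress phosphatase subunit, to 54.5 UPM, against 273 UPM. Gsn stood at 1319 and 2314 UPM in the members of 12 or more, a log2 ratio of -0.81 with no call.

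No p53 target of 13 measured passed, with Cdkn1a at 475 and 375 UPM. Among 8 cell cycle genes only Ccnd1 was called, and it fell. Beside 104 higher and 133 lower of all 5974 measured genes, such counts in short lists say little about the lists. Lepr had 10 UMIs in bleomycin pericytes and 23 in saline pericytes, in 9 of 64 and 20 of 65 members. After thinning it was found in 1.56% [0.0396 to 8.40] and 9.23% [3.46 to 19.0] of pericytes. The share was 5.30% and 15.04% in immune cells, 0.735% and 8.56% in fibroblasts, and 2.35% and 7.50% in smooth muscle. The pericyte intervals include each of these shares. Lepr in pericytes could thus not be told from its level in the other classes at this depth. Epithelial transcripts had the lowest ratios of all: Sftpc, the surfactant protein C gene of alveolar type 2 cells, had 3 UMIs in bleomycin pericytes and 237 in saline pericytes, and Scgb1a1, the club cell secretoglobin gene, 8 and 365. Bleomycin held 19 epithelial cells and saline 378, and both genes were found in every saline class. Sftpc stood at 604 UPM in saline pericytes, against 924 UPM in saline fibroblasts and 2177 UPM in saline immune cells. Scgb1a1 stood at 931 UPM in saline pericytes, against 858 UPM in saline fibroblasts and 1487 UPM in saline immune cells. Of 12 endothelial, 10 immune and 10 epithelial markers, 2, 3 and 3 were measured in pericytes, and of mesothelial, glial and cardiac markers 0.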

How the data were processed

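Lung cells of Lepr-Cre;Rosa26-tdtomato mice were sorted for live tdTomato signal and captured with 10x 3' v2 chemistry, in 1 bleomycin and 1 saline library. Deposited were unnormalized UMI counts for each barcode, made with Cell Ranger 2.1.1 on mm10 per the submitters' processing notes; the annotation is not given in the sources used here. The bleomycin library held 61537182 UMIs in 4473 barcodes and the saline library 37570380 in 5455; barcodes with fewer than 500 genes or over 10% mitochondrial UMIs (5 and 23) were left out. Scrublet (scanpy 1.11.5) marked 0.112% and 0.147% of barcodes, too few to trust, so doublets stayed in, and an alternative left out the 160 and 236 highest scores.

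UMIs were summed per class and library and expressed per 1000000 UMIs. Log2 ratios had a prior of 5 UPM. Levels have exact Poisson intervals, ratios exact conditional binomial intervals and shares Clopper-Pearson intervals, all at 95% for counting error only, where a count of 0 allows up to 3 counts. A list member was measured with 20 UMIs over both libraries of pericytes. The members, the 32 lists and the rules were chosen with earlier results of these data known. Genes named were the gate genes and markers, the 10 highest and 10 lowest ratios, the 12 leading and 8 lowest genes of each class contrast, up to 4 extreme members per list and 8 fixed genes, besides others of the lists. On simulated pericyte sums of 28692 genes, 50 of 50 genes were recovered at each of 3-fold and 4-fold up and down, and 6 of 2810 unchanged genes were called. The simulation drew Poisson counts for both libraries from the mean profile of the saline members, with no other variation between cells or libraries. Only genes well past the minimum level were changed. It thus checks that the rule runs as written and gives no rate of false calls for these 2 libraries.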

Additional observations from a re-analysis of the deposited data

Results flagged for a closer look

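Several genes were called in opposite directions in pericytes and in another class of the same libraries. They were picked after their values were seen, and the difference between classes was not tested. Ccnd1, cyclin D1, was lower after bleomycin in pericytes (log2 -1.66, 17 and 37 UMIs) and higher in smooth muscle (2.80) and fibroblasts (1.80). Dcn was lower in pericytes (-1.31) and higher in smooth muscle (2.38), whose bleomycin class held Cthrc1-positive cells. In pericytes most Dcn UMIs lay in members with fewer than 12 gate UMIs, and Dcn passed no call in the members of 12 or more. The chemokine gene Cxcl14 was lower in pericytes (-1.10) and higher in smooth muscle (1.36). Arl4a, a small GTPase gene, was higher in pericytes (1.18) and lower in smooth muscle (-1.21). Gsta3, a glutathione transferase gene, was higher in pericytes (1.12) and lower in fibroblasts (-1.74).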

How the results depend on the processing

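No paired analysis was possible because each group is 1 library. With every barcode thinned to 2000 UMIs before the gate, 35 genes were higher and 58 lower after bleomycin; 98 were higher and 137 lower than in smooth muscle, and 86 higher and 244 lower than in fibroblasts, and the Ndufa4l2 share was 98.2% after bleomycin and 98.8% after saline. With members thinned after the gate, 38 were higher and 66 lower after bleomycin, 85 higher than in smooth muscle, 72 higher and 157 lower than in fibroblasts, and the shares were 88.0% and 95.6%. From 6 gate UMIs, 136 were lower than in fibroblasts and the shares were 83.8% and 97.7%. Without members holding a Pdgfra UMI, 80 were lower after bleomycin and 167 lower than in fibroblasts, with shares of 92.3% and 97.6%. From 12 gate UMIs, added after seeing the data, members were 1.03% of bleomycin barcodes, 60 genes were higher after bleomycin and 193 lower than in fibroblasts, with shares of 94.0% and 98.5%. Without the highest Scrublet scores the bleomycin share was 82.5%. Weighting members equally gave 155 lower than in smooth muscle and 149 lower than in fibroblasts; median-of-ratios scaling gave 123 lower than in fibroblasts, and a prior of 20 UPM gave 55 higher after bleomycin. With 10 UMIs and no minimum UPM, 288 were higher and 392 lower after bleomycin, 373 and 215 than in smooth muscle, and 337 and 152 than in fibroblasts. Smooth muscle drawn by Myh11 alone, added after seeing the data, gave 212 lower. Log2 ratios changed sign for Gbp3 (0.48), Icam1 (0.042) and Sgk1 (-0.68) with thinning before the gate, Gbp3 (0.20) with thinning after it, C4b (1.36) without Pdgfra-positive members and Col12a1 (-0.037) from 12 gate UMIs; the cause was not tested. Of 72 genes named or listed and called after bleomycin, 38 kept the call from 12 gate UMIs, 34 without Pdgfra-positive members, 36 with thinning after the gate and 24 with thinning before it.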
